A study of Mus musculus with 6 samples.

Results

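The genes described here were grouped by name as genes of the hindbrain and its border with the midbrain, and the grouping is not a result. Their RNA was compared between pluripotent embryonic stem cells (ESCs) and cells treated with retinoic acid (RA). The 7 genes were Gbx2, Egr2, En1, En2, Pax2, Phox2a and Tshz1, picked by name from a table of 23235 entries, in which each has 1 entry. RNA-seq, the sequencing of cDNA made from cellular RNA, was run on 6 samples of the mouse ESC line E14Tg2a at passages 37 to 40. The ESC group held 3 samples kept undifferentiated in medium with leukemia inhibitory factor (LIF). The neuronal cell (NC) group held 3 samples of the same line grown as LIF-free monolayers in 1 µM RA for 48 h. Removal of LIF and addition of RA came together in the NC group, so their effects cannot be told apart. The line carries no transgene named in the labels, and both groups descend from it.

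The deposited values are FPKM, which count the fragments of a transcript scaled to its length and to all mapped fragments, and the table gives 1 value per gene and condition. No value of a single replicate was used here, so no SD, n or p-value stands beside any level, and each difference between ESCs and NCs is without a replicate check. FPKM is scaled to transcript length, so levels of different genes can be set side by side. In bulk RNA a lower level can come from fewer cells of a type or from less RNA per cell, and these cannot be told apart here. A gene was counted as different between conditions when its FPKM differed at least 2-fold and reached at least 1 FPKM in the higher condition. Of the 13293 entries that reached 1 FPKM, 23.1% passed the 2-fold limit, 12.5% with the higher value in NCs and 10.6% with the lower value in NCs.

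The vertebrate neural tube is divided along its length by transcription factors whose territories meet at sharp borders. At the border between midbrain and hindbrain, Otx2 on the midbrain side and Gbx2 on the hindbrain side repress each other, and a signalling centre called the isthmic organizer forms where they meet, marked by Pax2, En1, En2, Wnt1 and Fgf8. Behind it the hindbrain is split into rhombomeres, where RA sets position through the Hox genes and Egr2 marks the third and the fifth rhombomere.

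The 7 genes did not move together. Tshz1, Gbx2 and Pax2 were at least 2-fold higher in NCs, Phox2a was at least 2-fold lower, En2 was nearly level, and En1 and Egr2 stayed below 1 FPKM in both conditions. Thus 4 of the 7, or 4 of the 5 that reached 1 FPKM, passed the 2-fold limit, 3 upward and 1 downward. Of all entries that reached 1 FPKM, 12.5% passed upward, 10.6% downward and 23.1% in either direction. Tshz1 and Pax2 reached 1 FPKM in NCs but not in ESCs, so passing the limit was nearly fixed by their entry into the count. The median difference of log2(FPKM + 1), NC minus ESC, was -0.0029 over the 7 genes and 0 over all entries of the table.

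**Figure D1:**
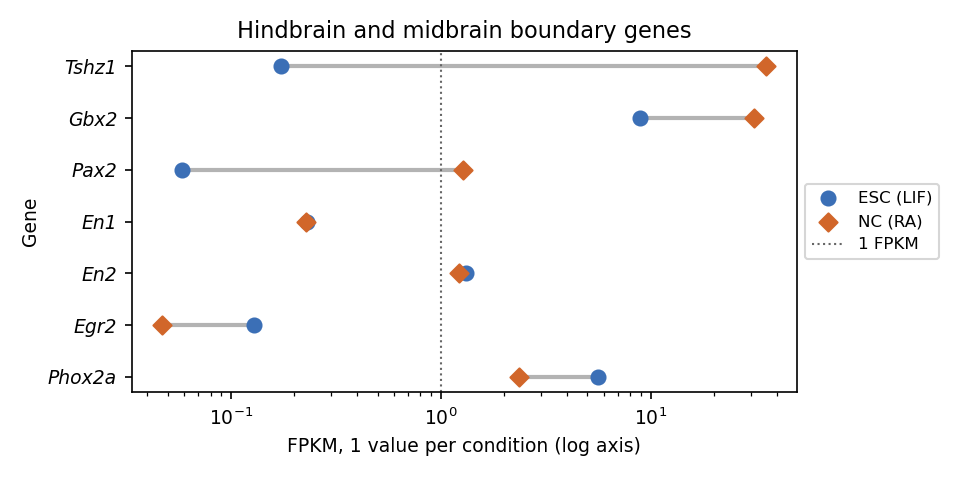
FPKM of the 7 genes in ESCs (blue circles) and NCs (orange diamonds) on a log axis, 1 value per condition, ordered by the difference of log2(FPKM + 1); the dotted line marks 1 FPKM. Tshz1 moved from 0.172 to 35.6 FPKM, while the En1 and En2 symbols nearly coincide.

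The order of the levels differed between the conditions. In ESCs Gbx2 was highest at 8.90 FPKM, followed by Phox2a at 5.60, En2 at 1.31, En1 at 0.230, Tshz1 at 0.172, Egr2 at 0.129 and Pax2 at 0.0587 FPKM. In NCs Tshz1 was highest at 35.6 FPKM, followed by Gbx2 at 31.2, Phox2a at 2.35, Pax2 at 1.27, En2 at 1.22, En1 at 0.228 and Egr2 at 0.0469 FPKM. With no spread over samples, it cannot be said whether neighbours in these orders, such as Pax2 and En2 in NCs, differ. Gbx2 lay above 68.7% of all entries in ESCs and above 87.3% in NCs, and Tshz1 above 35.3% and 88.9%.

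**Figure D2:**
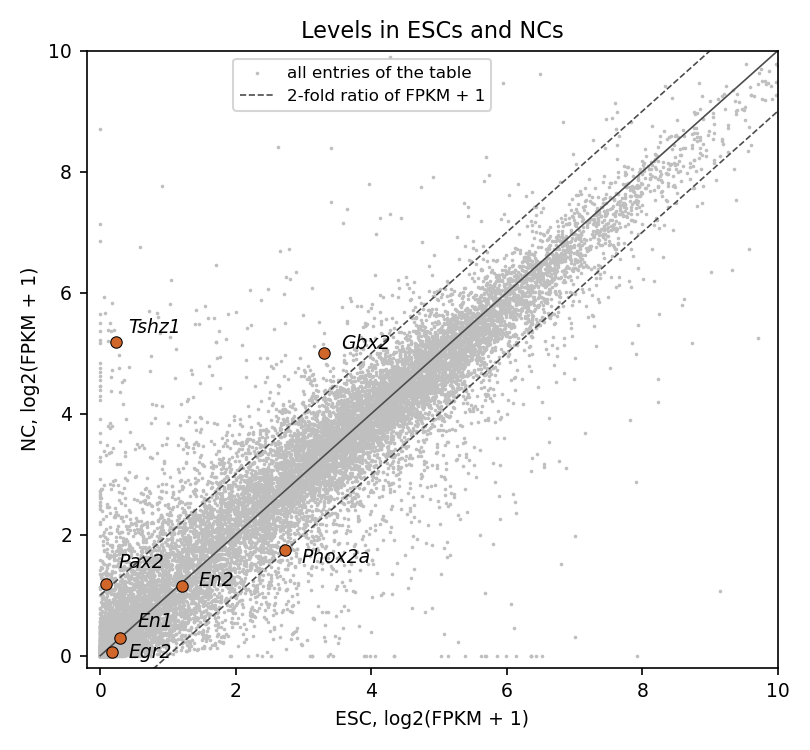
Level of every entry of the table in ESCs (x axis) and NCs (y axis) as log2(FPKM + 1), with the 7 genes in orange; the solid line is equality and the dashed lines a 2-fold ratio of FPKM + 1. Tshz1, Gbx2 and Pax2 lie above the upper dashed line and Phox2a lies just inside the lower one; both axes end at 10, and entries beyond are not drawn.

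Promoter sequence was compared for the members for which a RefSeq start was used here, 5 genes with 11 starts on GRCm38.p6. En2 and Tshz1 were not analysed in this way. The 250 bases before each start are shown for the gene that was higher in NCs with the most RNA in ESCs, the gene counted as lower in NCs, and a gene that stayed level, each read 5′ to 3′ on the strand of the gene and with CpG dinucleotides in capitals.
Gbx2, chr1:89931177-89931426, minus strand: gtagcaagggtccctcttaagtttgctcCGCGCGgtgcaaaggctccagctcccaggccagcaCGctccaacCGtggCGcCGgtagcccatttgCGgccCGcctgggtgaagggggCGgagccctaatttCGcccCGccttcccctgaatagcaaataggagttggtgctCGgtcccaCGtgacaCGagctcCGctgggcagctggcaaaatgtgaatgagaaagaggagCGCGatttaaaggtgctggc
Phox2a, chr7:101818063-101818312, plus strand: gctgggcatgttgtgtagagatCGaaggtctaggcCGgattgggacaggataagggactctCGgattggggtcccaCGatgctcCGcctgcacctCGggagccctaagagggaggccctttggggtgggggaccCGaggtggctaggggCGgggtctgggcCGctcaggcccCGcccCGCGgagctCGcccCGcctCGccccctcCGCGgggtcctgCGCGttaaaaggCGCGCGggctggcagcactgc
En1, chr1:120602237-120602486, plus strand: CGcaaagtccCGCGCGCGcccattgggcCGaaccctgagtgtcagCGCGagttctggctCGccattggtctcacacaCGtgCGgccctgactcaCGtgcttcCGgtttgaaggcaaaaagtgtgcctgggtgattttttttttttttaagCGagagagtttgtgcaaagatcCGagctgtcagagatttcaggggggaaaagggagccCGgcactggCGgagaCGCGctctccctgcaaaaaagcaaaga
These windows held 18 CpG in Gbx2, 22 in Phox2a and 19 in En1, beside a median of 6 over 32851 windows of the same length. Of the 11 windows of the 5 genes, 10 held more CpG than that median. The remaining window, 5 CpG, belongs to the most upstream of the 3 Pax2 starts. The 5 Egr2 windows, several of which overlap, held 15 to 26 CpG. CpG-dense windows were thus found before members with a higher, a lower and a level FPKM in NCs. The hexamer AGGTCA, the core of the elements that RA receptors bind, was searched on both strands and was found in 0 of the 11 windows and in 14.02% of all windows, which says only that these letters are not in these windows.

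Gbx2 (chromosome 1, 89927956 to 89931179 on GRCm38, the assembly that mm10 also denotes) encodes a homeodomain factor of the anterior hindbrain, and in mouse ESCs it is also known as a target of LIF and STAT3 that sustains self-renewal. Its FPKM was 8.90 in ESCs and 31.2 in NCs, 3.50-fold higher in NCs, a log2 ratio of 1.81. On the log2(FPKM + 1) scale the difference was 1.70, the 372nd largest of the 23235 entries. The higher Gbx2 level was thus in the condition without LIF.

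The other genes of the LIF response, listed for their known induction by LIF in ESCs, had the opposite direction. All 9 of them had the lower FPKM in NCs, and 8 passed the 2-fold limit. Socs3, the feedback inhibitor of the pathway, had 82.1 FPKM in ESCs against 8.67 FPKM in NCs. Tfcp2l1 had 32.6 and 2.44 FPKM and Klf4 had 31.4 and 3.51 FPKM. Pim1, the gene that stayed within the limit, had 97.4 and 69.6 FPKM. The median difference of log2(FPKM + 1) was -2.06 over these 9 genes, against 1.70 for Gbx2.

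Otx2, the midbrain antagonist of Gbx2, had 37.8 FPKM in ESCs against 0.166 FPKM in NCs and was 228-fold lower in NCs. The pair therefore exchanged order, with Otx2 above Gbx2 in ESCs and Gbx2 above Otx2 in NCs. Otx2 shared its lower level in NCs with all 7 ESC markers listed. Whether the lower Otx2 level reflects position in the neural tube was not tested. Otx1, the paralog of Otx2, was at 0.138 and 0.155 FPKM. Gbx1, the paralog of Gbx2 that works later in the hindbrain and spinal cord, was 9.34-fold higher in NCs, at 0.377 and 3.52 FPKM. An RNA gene on the other strand, D130058E05Rik, overlaps Gbx2 by 946 bases, and whether the libraries kept strand is not given in the sources used here.

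Tshz1 (chromosome 18, 84011627 to 84087706), a teashirt zinc-finger factor, had the largest change of the 7 genes. Its FPKM was 0.172 in ESCs and 35.6 in NCs, a 207-fold higher value and a log2 ratio of 7.69. On the log2(FPKM + 1) scale the difference of 4.96 was the 24th largest of all entries. The ESC value was low but lay above 0.00758 FPKM, the value that 3 fragments would give in a transcript of its length by the step size read from the lowest values of the table.

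The other teashirt genes had the same direction at lower levels. Tshz3 had 0.441 FPKM in ESCs against 3.85 FPKM in NCs, 8.73-fold higher. Tshz2 had 0.0299 and 0.474 FPKM and did not reach 1 FPKM in either condition. In NCs the FPKM of Tshz1 was thus well above those of both paralogs, while in ESCs Tshz3 had the highest value of the family.

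A neighbour of Tshz1 on the chromosome was high in the same condition. Zadh2, which encodes an oxidoreductase, starts 357 bases from the Tshz1 start and is read in the opposite direction, so the genes are arranged head to head and do not overlap. Zadh2 had 1.18 FPKM in ESCs against 32.5 FPKM in NCs, 27.6-fold higher in NCs. Its NC level was close to that of Tshz1. Among entries with at least 1 FPKM, 573 head-to-head pairs had starts within 1000 bases of each other. In 52 of these pairs at least 1 gene was 2-fold higher in NCs, and in 5 of the 52 (9.62%) both were. Tshz1 and Zadh2 were the 1 pair of the 573 in which both genes were at least 16-fold higher in NCs. Zadh2 was chosen after its values were seen, and the 16-fold limit was not planned and was set after the data were seen. That this pair stands alone at that limit is therefore a description.

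**Figure D3:**
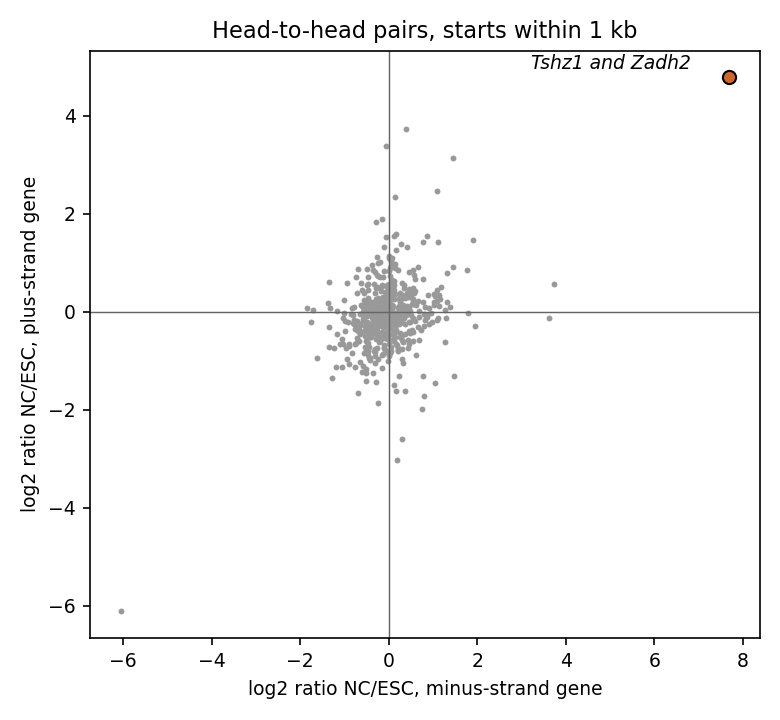
Log2 ratio of NC to ESC FPKM for the 573 head-to-head gene pairs with starts within 1 kb, the gene on the minus strand on the x axis and the gene on the plus strand on the y axis; each point is a pair. The pair of Tshz1 and Zadh2, in orange, lies alone at the upper right, at 7.69 and 4.79.

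Around the other members no such companion was seen. Within 100 kb of the 7 starts lay 13 placed genes of the table, of which 9 reached 1 FPKM, 2 were at least 2-fold higher in NCs and 1 at least 2-fold lower. Besides Zadh2, the higher one was Folr1, a folate receptor gene 52475 bases from the Phox2a start, with 14.1 and 42.6 FPKM. The lower one was Cnpy1, described below with En2. Folr1 was chosen after its values were seen.

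Pax2 (chromosome 19, 44756045 to 44837871) encodes a paired-box factor that is among the earliest genes of the isthmic organizer. It had 0.0587 FPKM in ESCs against 1.27 FPKM in NCs, a 21.7-fold higher value and a log2 ratio of 4.44. The ESC value was above 0.00994 FPKM, the value of 3 fragments in a transcript of its length. The NC level was only just above the 1 FPKM limit. On the log2(FPKM + 1) scale, which weighs low values less, the difference was 1.10. On the other strand, 1700039E22Rik overlaps Pax2 by 7446 bases and was at 0.0875 FPKM in NCs, and Gm20395 overlaps it by 10751 bases.

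The paralogs that act with Pax2 at the border did not share this difference. Pax5 was at 0.0306 FPKM in ESCs against 0.0268 FPKM in NCs, and Pax8 was at 0.674 and 0.698 FPKM. Pax2 also marks the kidney and the ear placode. Of 8 genes listed for those tissues, 6 reached 1 FPKM, 4 were at least 2-fold higher in NCs and 1 was lower, and the summed FPKM was 8.13 in ESCs and 37.2 in NCs. Wt1, a kidney and mesothelium factor, made up most of this with 2.42 and 20.5 FPKM. Osr1 had 0.0314 and 3.81 FPKM and Lhx1 had 0.108 and 3.39 FPKM, while the ear placode marker Dlx5 was at 0.0972 FPKM in NCs with a listed ESC value of 0. The part of such cells in the Pax2 level was not tested.

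En1 (chromosome 1, 120602418 to 120607992) and En2 (chromosome 5, 28165694 to 28172166) encode the engrailed homeodomain factors of midbrain and anterior hindbrain, which act after Pax2 at the isthmus. En1 had 0.230 FPKM in ESCs against 0.228 FPKM in NCs, a log2 ratio of -0.02. En2 had 1.31 and 1.22 FPKM, a log2 ratio of -0.10. The values differed 1.01-fold for En1 and 1.07-fold for En2, and En2 exceeded En1 in both conditions. After subtraction of -0.05, the median log2 ratio of the 11717 entries with at least 1 FPKM in both conditions, the ratio was 0.03 for En1 and -0.05 for En2, so no direction is given for either gene. En2 is overlapped on the other strand by Gm43610 over 365 bases.

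Cnpy1, an isthmic gene that promotes FGF signalling, lies beside En2 on chromosome 5 and is read in the opposite direction, with starts 80112 bases apart. Its FPKM was 4.46 in ESCs and 0.515 in NCs, 8.66-fold lower in NCs. The level En2 and the lower Cnpy1 are thus adjacent genes of the same territory with different ratios.

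The remaining genes of the isthmic organizer were mixed. Of 20 listed signals, receptors and factors of the midbrain-hindbrain border, 17 reached 1 FPKM, 7 were at least 2-fold higher in NCs and 5 at least 2-fold lower. The median difference of log2(FPKM + 1) was 0.02, beside -0.03 over the entries with at least 1 FPKM. Wnt1, the signal of the midbrain side, had 0.00633 FPKM in ESCs, under the 3-fragment value of 0.0190, and 1.77 FPKM in NCs, at least 93.5-fold higher. Fgf8, the signal of the hindbrain side, had 1.51 and 0.934 FPKM and stayed within the 2-fold limit. Fgf17, a ligand of the same family, was 29.3-fold lower in NCs, at 6.05 and 0.206 FPKM.

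Other genes of FGF signalling in the list differed in direction. Spry2 had 45.7 and 6.74 FPKM and Il17rd had 12.6 and 4.28 FPKM, while Spry1 stayed within the limit at 18.7 and 10.7 FPKM. These are feedback inhibitors of the pathway. The receptor genes Fgfr2 and Fgfr3 were 3.59-fold and 4.53-fold higher in NCs, at 7.40 and 26.6 FPKM and at 1.39 and 6.31 FPKM, and Fgfr1 had 31.0 and 44.1 FPKM. Lmx1b, a LIM homeodomain factor that maintains Wnt1, was 2.23-fold higher in NCs at 0.8003 and 1.78 FPKM. Sp8, a zinc-finger factor, was 137-fold higher, at 0.0444 and 6.06 FPKM. Of the isthmic markers, Pax2 and Wnt1 were therefore higher in NCs and just above 1 FPKM. En1, En2, Pax5, Pax8 and Fgf8 stayed within 2-fold at low levels. Other isthmic genes went both ways, with Lmx1b and Sp8 higher in NCs and Fgf17 and Cnpy1 lower.

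Egr2 (chromosome 10, 67535475 to 67542188), also called Krox20, encodes the zinc-finger factor that marks the third and the fifth rhombomere. It had 0.129 FPKM in ESCs against 0.0469 FPKM in NCs. The NC value was 2.76-fold lower, but neither value reached 1 FPKM. Both lay above the 3-fragment values of 0.0149 and 0.0155 FPKM, so some Egr2 fragments were seen in each condition.

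The genes that stand around Egr2 in the hindbrain were mostly higher in NCs. Of 23 listed genes of hindbrain segmentation, all 23 reached 1 FPKM, 19 were at least 2-fold higher in NCs, 0 were at least 2-fold lower and 4 stayed within the limit. Their median difference of log2(FPKM + 1) was 3.69. Hoxb1 and Hoxb2, Hox genes of the anterior hindbrain, had 0.126 and 0.508 FPKM in ESCs and were at 56.1 and 107 FPKM in NCs. Meis2, a cofactor of Hox proteins, was 78.2-fold higher in NCs at 0.649 and 50.7 FPKM, and Cyp26b1, an RA-degrading enzyme of the hindbrain, was 66.0-fold higher at 0.257 and 17.0 FPKM.

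Genes that work next to Egr2 itself differed less. Nab2, a corepressor that binds EGR proteins, was 2.32-fold higher in NCs at 4.42 and 10.3 FPKM, and Nab1 had 2.81 and 4.44 FPKM. Epha4, an Egr2 target in the rhombomeres, had 9.14 and 5.18 FPKM, and Fgf3, a signal of the hindbrain, had 1.45 and 1.72 FPKM. Among the Egr paralogs, Egr1 was the one above 1 FPKM, at 6.57 and 9.94 FPKM. Egr3 was at 0.0521 and 0.103 FPKM and Egr4 at 0.211 and 0.0319 FPKM.

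Phox2a (chromosome 7, 101818313 to 101822726) encodes a homeodomain factor of noradrenergic and visceral motor neurons of the brainstem and of autonomic neurons. Among the 5 members that reached 1 FPKM it was the 1 at least 2-fold lower in NCs. It had 5.60 FPKM in ESCs against 2.35 FPKM in NCs, 2.38-fold lower, which is -1.25 as a log2 ratio. After 1 FPKM was added to both values the log2 ratio was -0.98, within the 2-fold limit.

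The last 95 bases of Phox2a overlap the end of Inppl1, a phosphatase gene on the other strand. Inppl1 had 33.3 FPKM in ESCs against 34.5 FPKM in NCs, above Phox2a in both. Fragments from the shared bases cannot be told apart without strand, so the low level of Phox2a is uncertain to that extent. Inppl1 was chosen after its values were seen.

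Other genes of these neurons were mixed. Of 18 genes listed for brainstem noradrenergic and visceral motor neurons, 10 reached 1 FPKM, 6 were at least 2-fold higher in NCs and 1 was lower. Hand2, a factor of autonomic neurons, had 0.0447 and 3.11 FPKM and Gata3 had 0.204 and 4.02 FPKM. Tbx20, a factor of branchial and visceral motor neurons, was lower, at 1.32 and 0.260 FPKM. Of the enzymes and transporters of the mature neurons, the monoamine transporter Slc18a2 had 0.846 and 1.25 FPKM, within the 2-fold limit. The others did not reach 1 FPKM, with Dbh listed at 0 in both conditions, Th at 0.0318 and 0.250 FPKM and Slc6a2 at 0.103 and 0.174 FPKM. The median difference of log2(FPKM + 1) over the 18 genes was 0.45.

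**Figure D4:**
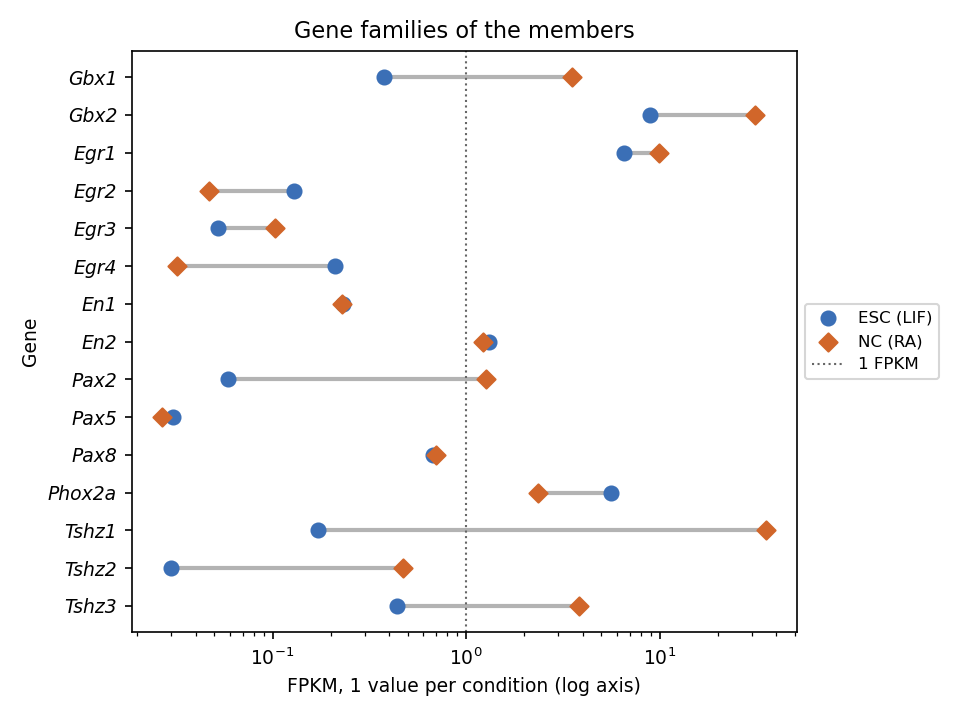
FPKM in ESCs (blue circles) and NCs (orange diamonds) of the 7 genes and paralogs of Gbx2, Egr2, En1, Pax2 and Tshz1 on a log axis, 1 value per condition; the dotted line marks 1 FPKM. The 3 Tshz genes and both Gbx genes have their higher value in NCs, and Pax2 is higher in NCs while Pax5 and Pax8 are level.

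Set beside each other, the lists of the border and of the hindbrain differed in their counts. Past the 2-fold limit in NCs stood 19 of 23 segmentation genes upward and 0 downward, against 7 of 20 border genes upward and 5 downward. Beside these and the other list counts, 12.5% of all tested entries were upward and 10.6% downward. Genes that RA is known to induce directly were higher in NCs in 7 of 7 cases, with Crabp2, an RA-binding protein gene, at 18.3 and 949.8 FPKM and Dhrs3, which lowers RA formation, at 2.70 and 49.0 FPKM. The lists were chosen with earlier results of these data known and share genes such as Hoxb1, so their counts are descriptions.

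**Figure D5:**
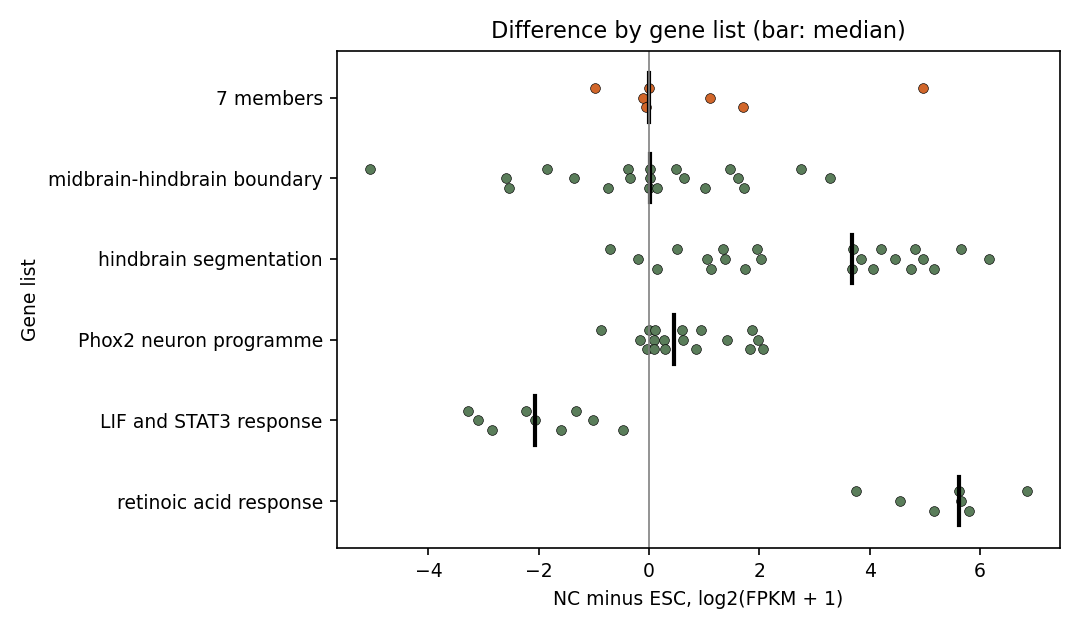
Difference of log2(FPKM + 1), NC minus ESC, for the 7 genes (orange) and the genes of 5 other lists (green); each point is a gene and the black bar is the median of the list. The median is 3.69 for hindbrain segmentation, 0.02 for the midbrain-hindbrain border and -2.06 for the LIF response.

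The entries nearest to each member in both conditions were found by distance over log2(FPKM + 1) in ESCs and NCs. Tshz1 lay nearest to Arg1, at 0.0850 and 35.7 FPKM and a distance of 0.112, and to Nrp1, at 0.147 and 40.6 FPKM. Gbx2 lay nearest to Cpe, at 8.81 and 34.4 FPKM and a distance of 0.140, and to Glis2. For Pax2 the nearest entries were Dcc and A430089I19Rik, for Phox2a Dll3 and Btbd19, and for En2 Bzrap1 and Mapk15. Egr2 and En1, below 1 FPKM in both conditions, were left out. Within a distance of 0.5 lay 16 entries for Tshz1, 45 for Gbx2, 293 for Phox2a, 407 for Pax2 and 903 for En2. Tshz1 and Gbx2, the members with the highest NC levels, thus had the fewest. Adding 1 FPKM draws low values together, so these counts depend on level and do not measure how rare a pattern is. With 2 conditions this likeness rests on 2 values per gene.

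Markers of other cells moved as well. All 7 ESC markers listed were at least 2-fold lower in NCs, with a summed FPKM of 2446 in ESCs and 109 in NCs. Among 9 markers of neural progenitors and neurons, Sox1, Sox3 and Pax6 were at least 2-fold higher in NCs, at 21.8, 21.9 and 65.2 FPKM there, while the neuronal genes Tubb3 and Elavl3 were lower and Dcx was at 0.334 FPKM in NCs. Of the 8 endoderm markers 5 were higher and 1 lower in NCs, of the 8 mesoderm markers 3 were higher (Lhx1, Osr1 and Wt1, all counted above as kidney genes) and the other 5, markers of the primitive streak and early mesoderm, did not pass the limit, of the 6 forebrain markers 2 were higher and 1 lower, and of the 7 neural crest and Schwann cell markers 2 were higher and 1 lower. Summed FPKM in ESCs and NCs were 18.1 and 39.8 for endoderm, 5.62 and 29.7 for mesoderm (20.5 of it Wt1), 3.17 and 6.31 for forebrain, and 14.8 and 109 for neural crest and Schwann cells, where Pmp22 alone had 102 FPKM in NCs. The neural crest factor Sox10 had 1.16 and 1.95 FPKM. The part of these cells in the levels of the 7 genes was not tested.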

How the data were processed

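The authors aligned the reads to mm10 with TopHat 2.0.8 and Bowtie 2.1.0, assembled transcripts with Cufflinks 2.0.2, merged them with Cuffmerge and compared the conditions with Cuffdiff. They deposited FPKM, 1 value per gene and condition from 3 replicates, with Cuffdiff's status, fold change, test statistic, p, q and significance columns. Those columns were not used. Depth per sample is unknown. The summed FPKM is 770592 for ESCs and 628679 for NCs, and ratios of genes with low FPKM are imprecise.

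Here ratios were taken without a pseudocount. A gene counted as different at 2-fold and 1 FPKM in the higher condition, which 13293 of 23235 entries reached. The value of 1 fragment was read from the lowest FPKM of genes with 1 transcript in GENCODE M21 (GRCm38), assuming fragments of 200 bases. In 1 kb it was 0.0138 FPKM in ESCs and, at the larger of the 2 most frequent steps, 0.0143 FPKM in NCs. The 3-fragment values use the longest coding transcript and cover counting error only.

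The members and gene lists were chosen with earlier results of these data known. Named were all members and their paralogs (some genes of the lists are not reported here), list genes by role or by the 4 largest differences, and the 2 entries nearest to each member above 1 FPKM. The step size, the chromosomal neighbours and the head-to-head pairs were added after the data were seen. Promoters came from RefSeq (GRCm38.p6). Of 22969 distinct names, 21404 were found in GENCODE. How often a gene of these data was wrongly counted as different, at low FPKM or above, was not tested. Python 3.11.15, numpy 2.4.6, pandas 2.3.3 and matplotlib 3.10.9 were used. The alternatives were pseudocounts of 0.1 and 1, centring, other FPKM limits and folds of 1.5 and 4.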

Additional observations from a re-analysis of the deposited data

How the results depend on the processing

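Across 7 alternatives, 44 of 49 values of the 7 genes were counted as before, as higher, lower or not different. Direction within the limit was not part of this count. The log2 ratio of En1 changed sign on centring, from -0.0158 to 0.0322. Phox2a came within the limit with a pseudocount of 1 FPKM, Egr2 passed it when the 1 FPKM filter was dropped, Pax2 fell out at 5 FPKM, and Gbx2 and Phox2a did not reach 4-fold. Tshz1 passed under all 7, and the directions of En1 and En2 are not read. The number of members lower in NCs was 1, and 0 with a pseudocount of 1 FPKM, 2 without the filter and 0 at 4-fold. Over all entries 1658 were higher and 1412 lower in NCs. These counts were 2947 and 2403 without the filter, 821 and 863 at 5 FPKM, 2741 and 2573 at 1.5-fold, and 679 and 488 at 4-fold, and 1074 were higher with a pseudocount of 1 FPKM. Of the 139 other list genes, 59 were higher, and 37 at 5 FPKM. Each limit counts fewer or more genes by its own construction. Single lists kept their counts within 1.5 times in 163 of 196 cases. No paired analysis was possible because the table holds 1 value per condition, and for the same reason no replicate could be left out. Precision at low FPKM is limited by a depth that is unknown.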

Other observations

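Genes of the ventral and dorsal midbrain were listed as well. Of 14 listed genes, 9 reached 1 FPKM, 8 were at least 2-fold higher in NCs and 1, Otx2, was lower. Foxa1 and Foxa2, floor plate factors that are also endoderm genes, had 0.227 and 8.02 FPKM and 0.617 and 5.24 FPKM in ESCs and NCs. Lmx1a, a roof plate and midbrain factor, had 0.218 and 3.06 FPKM, and Msx1 had 0.117 and 5.75 FPKM. The dorsal factor Pax3 had 0.0717 and 1.81 FPKM, whereas Pax7 was at 0.125 and 0.192 FPKM. Markers of midbrain dopamine neurons were low, with Nr4a2 at 0.154 and 1.03 FPKM and Pitx3 at 0.272 and 0.127 FPKM. Many of these genes also act in the hindbrain and spinal cord.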
